A study of Homo sapiens with 6 samples.

Results

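The cadherin superfamily genes outside the clustered protocadherins were followed in HEK293T, a transformed line from human embryonic kidney with the large T antigen of SV40. Members were chosen by gene symbol: the CDH and CDHR genes, the PCDH genes with a plain number, the desmocollins (DSC), the desmogleins (DSG), FAT1 to FAT4 and CELSR1 to CELSR3. This gave 53 of the 47470 listed genes. RNA-seq was performed on 3 untreated libraries and on 3 libraries of cells that had valproic acid (VPA), a histone deacetylase inhibitor, at 1 mM for 1 day. Both groups are of the same line, with WT as the genotype of the untreated libraries and the treatment in that field for the treated ones. Nothing in the labels says whether libraries of a group came from separate cultures, so the p-values measure the spread between these samples, which may be technical. The question was which of these adhesion genes differed in RNA level between VPA-treated and untreated cells.

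Cadherins are calcium-dependent adhesion proteins of the cell surface whose extracellular domains bind those of the neighbouring cell. Classical cadherins hold adherens junctions and are tied to actin through beta-catenin and alpha-catenin, while desmocollins and desmogleins hold desmosomes and are tied to intermediate filaments through plakoglobin and desmoplakin. Protocadherins act mostly in neural tissue, FAT and CELSR cadherins act in planar polarity, and CDH23 with PCDH15 forms the tip links of hair cells in the inner ear. The balance of E-cadherin (CDH1) and N-cadherin (CDH2) is widely used to describe epithelial and mesenchymal states.

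Counts on genes totalled 18622267 to 18828495 per library. Values below are TMM-normalized counts scaled to the mean library, log2 fold changes are VPA-treated over untreated, and adjusted p-values are from edgeR's quasi-likelihood test over 15298 genes. Up-regulated and down-regulated genes had an adjusted p under 0.05 and changed by 1 or more on the log2 scale, and genes past the adjusted p alone were termed higher or lower. All 1437 listed genes of chromosome X are at 0 in every library. They include PCDH19, whose 0 is therefore not read as its level. Of the HEK293 lineage markers PAX2, PAX8, LHX1, NEFL, NEFM, VIM, KRT8 and KRT18, 7 passed the filter on low counts, and PAX8 had 2 counts in all. Their sum was 17274 to 17788 normalized counts in untreated and 20677 to 22011 in treated libraries, with PAX2, NEFL and KRT8 up-regulated (log2 fold changes of 2.26, 1.06 and 1.37), LHX1, NEFM and KRT18 higher and VIM lower (-0.27), and their part in the changes of CDH1 and CDH2 was not tested. In bulk RNA a change in the number of expressing cells and a change in RNA per cell cannot be told apart.

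VPA-treated cells had more RNA of many cadherins that untreated cells held at a low level, among them CDH1, CDH3, PCDH1, CDH10, CDHR1 and CDH23. The abundant members stayed under the fold change threshold, and of these CDH2, PCDH7 and DSC3 were lower (log2 fold changes of -0.37, -0.62 and -0.26). Of the 53 members 34 passed the filter on low counts, 17 of them (50%) were up-regulated against 12.0% of all tested genes, and 1, CDH26, was down-regulated against 0.503%. At the adjusted p alone 27 were higher and 4 lower, where 32.9% and 30.0% of all tested genes were higher and lower. The median log2 fold change was 0.91 in the tested members and 0.0058 in all tested genes. The fitted value of DSG3, at 0 in untreated libraries, and its lower bound both lie above that median and so do not affect it. The filter itself bears on these counts and on the members' median of 0.91, since 8 of the 17 up-regulated members had under 10 counts in some untreated library. These 8 (CDH4, CDH7, CDH15, CDH18, CDH22, DSG3, PCDH8 and PCDH15) passed it only through the treated libraries, so that they had to differ. Among the 26 members with at least 10 counts in every untreated library 9 were up-regulated (34.6%), against 8.07% of all tested genes with that property, and 19 were higher, against 30.3% of them. Across all tested genes, too, the up-regulated share was smaller with that property (8.07%) than without the restriction (12.0%), so frequent calls at low untreated levels are not particular to cadherins. Every treated library lay above every untreated one in 28 tested members and below in 4, which holds for 34.8% and 31.0% of all tested genes. The 28 include the 8 members that passed the filter only through the treated libraries, so this count is subject to the same limit.

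**Figure D1:**
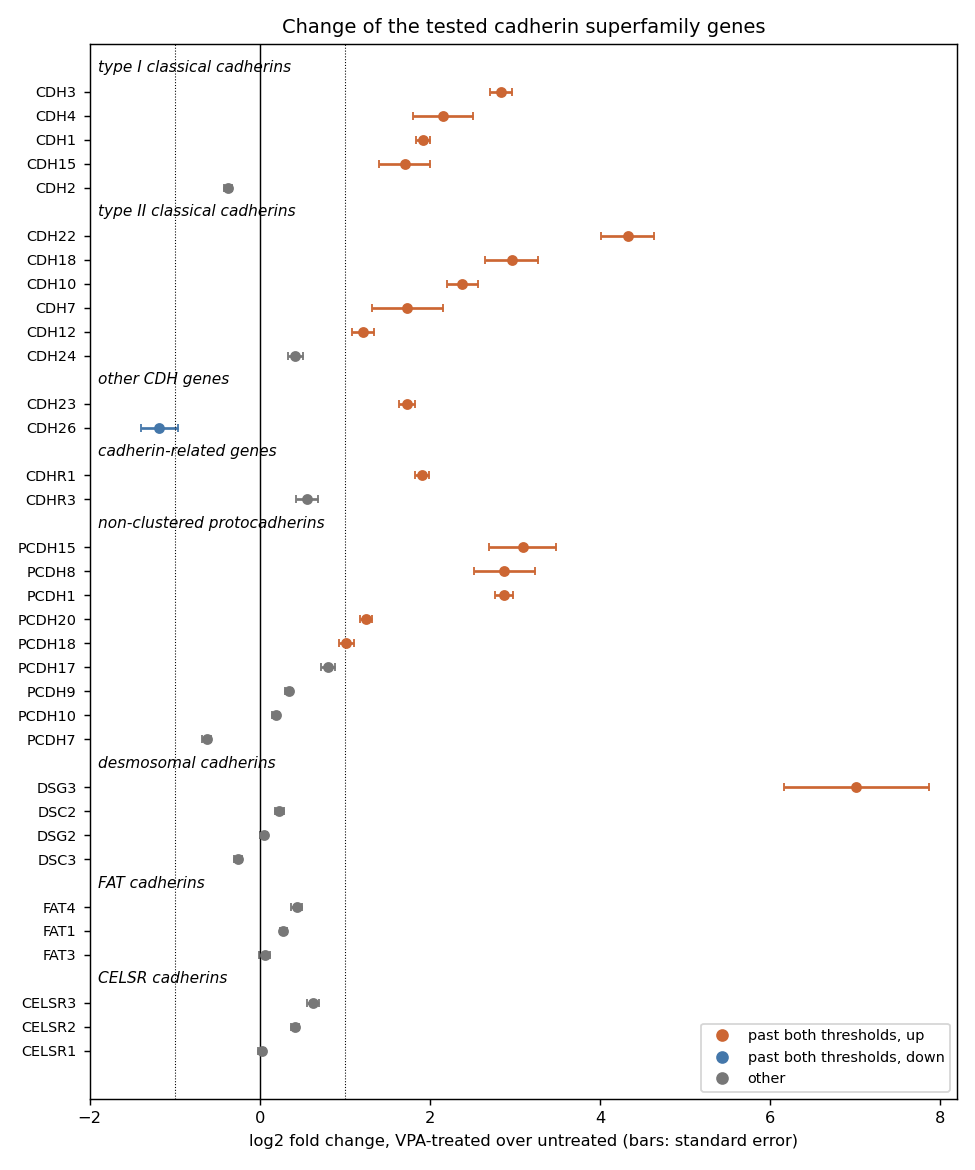
Log2 fold change of VPA-treated over untreated cells (x axis) with its standard error for the 34 tested members, ordered by class; dotted lines mark a change of 1 in either direction. Type I and type II classical cadherins lie mostly to the right of 1, except CDH24 (0.42) and CDH2 (-0.37). Of those to the right, CDH4, CDH7, CDH15, CDH18 and CDH22 passed the filter only through the treated libraries. FAT and CELSR cadherins lie between 0 and 1. The value drawn for DSG3, at 0 in untreated libraries, depends on the prior count.

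The sequence upstream of the start is shown for 7 members that differ in their response, to show how widely promoter CpG content ranged among them. RefSeq promoter sequences (GRCh38.p14) were at hand for 35 of the 53 members. Each line gives the 250 bases before the annotated start, 5′ to 3′ on the gene's strand, with CpG dinucleotides in capitals. CDH10, CDH23, CDHR1, PCDH1 and DSG3 were up-regulated, CDH26 was down-regulated and CDH2 was lower. The windows lie at chr5:24644979-24645228 (minus strand) for CDH10, chr10:71396670-71396919 (plus) for CDH23, chr10:84194287-84194536 (plus) for CDHR1, chr5:141869628-141869877 (minus) for PCDH1, chr18:31447491-31447740 (plus) for DSG3, chr20:59958173-59958422 (plus) for CDH26 and chr18:28177131-28177380 (minus) for CDH2. The start used for PCDH1 lies inside its gene span.
CDH10: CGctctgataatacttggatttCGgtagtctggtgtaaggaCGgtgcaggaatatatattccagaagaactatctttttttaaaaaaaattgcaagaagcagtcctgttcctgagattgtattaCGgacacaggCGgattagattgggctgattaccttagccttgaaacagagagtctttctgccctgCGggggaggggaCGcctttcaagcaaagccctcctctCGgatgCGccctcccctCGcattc
CDH23: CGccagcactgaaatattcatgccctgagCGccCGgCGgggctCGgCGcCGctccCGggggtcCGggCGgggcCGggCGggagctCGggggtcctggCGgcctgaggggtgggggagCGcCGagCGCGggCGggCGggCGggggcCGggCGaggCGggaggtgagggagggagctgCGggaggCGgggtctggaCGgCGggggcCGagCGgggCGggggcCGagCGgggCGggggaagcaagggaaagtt
CDHR1: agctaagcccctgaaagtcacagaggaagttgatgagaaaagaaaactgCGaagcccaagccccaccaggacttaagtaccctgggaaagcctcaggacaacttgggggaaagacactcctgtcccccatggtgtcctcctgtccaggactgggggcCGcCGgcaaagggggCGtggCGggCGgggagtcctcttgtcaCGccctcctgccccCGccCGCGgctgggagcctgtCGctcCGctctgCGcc
PCDH1: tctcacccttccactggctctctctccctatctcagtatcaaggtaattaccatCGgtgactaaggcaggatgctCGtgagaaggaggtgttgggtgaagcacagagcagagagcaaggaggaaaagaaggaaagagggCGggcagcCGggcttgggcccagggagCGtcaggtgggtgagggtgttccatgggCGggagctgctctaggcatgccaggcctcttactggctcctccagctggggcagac
DSG3: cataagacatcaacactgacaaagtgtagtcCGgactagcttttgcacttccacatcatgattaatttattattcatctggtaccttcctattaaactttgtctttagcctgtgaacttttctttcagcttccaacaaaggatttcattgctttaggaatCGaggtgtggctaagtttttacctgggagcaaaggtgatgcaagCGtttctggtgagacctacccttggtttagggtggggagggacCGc
CDH26: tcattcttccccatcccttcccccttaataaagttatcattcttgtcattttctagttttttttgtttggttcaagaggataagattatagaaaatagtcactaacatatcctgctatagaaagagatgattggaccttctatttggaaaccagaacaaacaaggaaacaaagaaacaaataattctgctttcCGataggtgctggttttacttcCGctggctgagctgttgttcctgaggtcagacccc
CDH2: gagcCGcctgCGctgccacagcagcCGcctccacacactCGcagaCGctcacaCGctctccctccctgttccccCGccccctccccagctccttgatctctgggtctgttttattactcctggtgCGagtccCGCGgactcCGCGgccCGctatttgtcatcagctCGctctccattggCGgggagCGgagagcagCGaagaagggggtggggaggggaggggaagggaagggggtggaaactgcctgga

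CpG content varied widely among the up-regulated members. CDH23 has 34 CpG in its window and DSG3 has 4, and the 12 up-regulated members with a sequence had a median of 7.5, or 10 over the 6 of them with at least 10 counts in every untreated library. The 11 tested members that were not called had a median of 18, and all 27303 promoters of the table a median of 11. The E-box CACCTG, read on both strands (CACCTG or CAGGTG), was found in 7 of the 35 member windows (20%) and in 17.5% of all promoters. It stands in the windows of the up-regulated members PCDH1, CDH4 and PCDH15, of DSC2 and DSG2, which were not called, and of CDHR2 and DSG1, which were not tested. In PCDH1 it is at position -81 from the start. As for PCDH1, the starts used for CDH4 and PCDH15 lie inside their gene spans. No sequence was at hand for CDH1 and CDH3.

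Type I classical cadherins, the main adhesion proteins of adherens junctions, were all tested. Of the 5, 4 were up-regulated, against 12.0% of all tested genes, while CDH2 was lower. CDH15 and CDH4 passed the filter only through the treated libraries. CDH1, E-cadherin, on chromosome 16 from 68737292 to 68835537 (plus strand), had 148, 180 and 177 normalized counts before and 602, 648 and 659 after treatment. The 2 ranges lie far apart, with a log2 fold change of 1.92 ± 0.079 (SE; adjusted p = 1.08e-14). CDH3, P-cadherin, lies just upstream from 68645310 to 68733771, with 3520 bases between the genes. It had 31.1, 46.1 and 32.5 counts before and 262, 264 and 259 after treatment, a log2 fold change of 2.84 ± 0.13 (SE; adjusted p = 4.09e-14). CDH15, M-cadherin of muscle, had 10.4, 7.33 and 5.25 counts in untreated and 25.9, 23.1 and 26.8 in treated libraries. Its log2 fold change of 1.71 ± 0.30 (SE) rests on 101 counts over the 6 libraries (adjusted p = 4.10e-05), and CDH4, R-cadherin, rests on 89 counts with a log2 fold change of 2.15 ± 0.35.

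CDH2, N-cadherin, on chromosome 18 from 27932879 to 28177130 (minus strand), went the other way. The untreated libraries had 1999, 2162 and 2045 normalized counts and the treated ones 1612, 1592 and 1583, without overlap. The log2 fold change was -0.37 ± 0.044 (SE; adjusted p = 2.31e-07), short of the fold change threshold. To compare the genes with each other, counts were divided by the length of the canonical GENCODE 44 transcript. Per kilobase CDH2 went from 515 ± 20.8 to 397 ± 3.70, CDH1 from 35.0 ± 3.69 to 132 ± 6.30 and CDH3 from 8.21 ± 1.86 to 58.8 ± 0.503 normalized counts (SD, n = 3 each). The sum over the 5 type I genes was 539 to 589 in untreated and 598 to 602 in treated libraries, and with the union of all annotated exons as the length it was 265 to 291 and 337 to 342. Within a library CDH1 stood at 6.18%, 6.95% and 7.24% of the level of CDH2 in untreated cells and at 31.2%, 34.0% and 34.7% in treated cells, a 4.90-fold difference in the means (two-sided p = 0.1 by exact permutation, as small as 3 against 3 libraries allow). CDH2 was the more abundant of the pair in every library. With the union of exons the treated mean was 56.3% in place of 33.3%, and the 4.90-fold difference does not depend on the length.

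**Figure D2:**
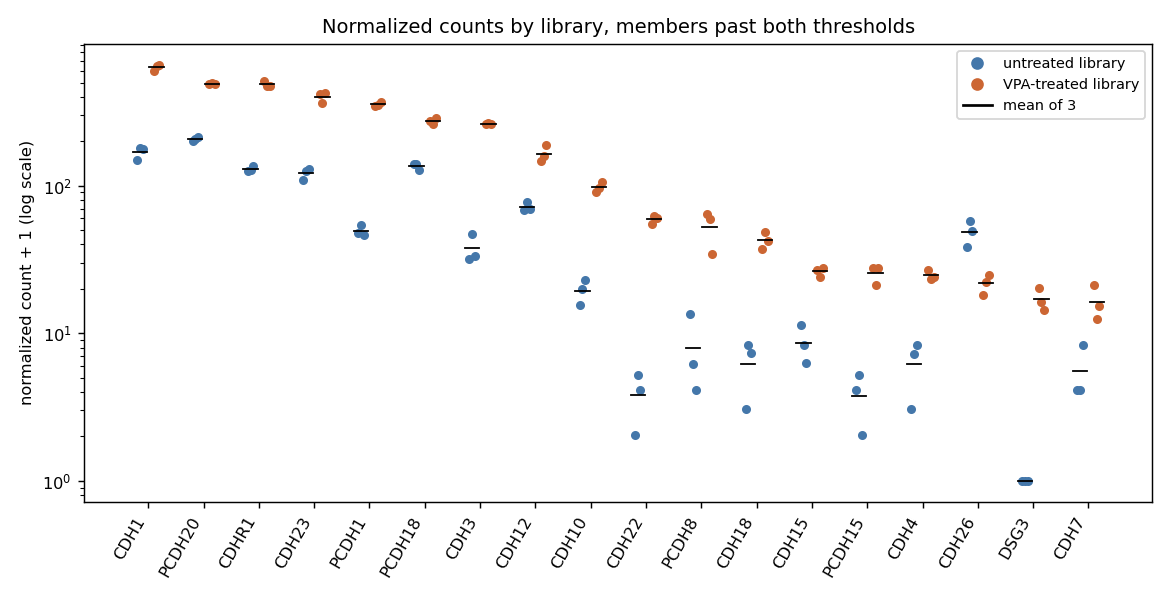
Normalized counts plus 1 (y axis, log scale) in each library for the 18 members past both thresholds, with the mean of 3 libraries as a bar. In 17 members the 3 treated libraries sit above the 3 untreated ones, and in CDH26 they sit below, at 17.2 to 23.9 against 37.3 to 56.5 normalized counts.

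Type II classical cadherins, which mark motor neuron pools, brain regions and vessels, had 6 tested members of 13, of which 5 were up-regulated and CDH24 was higher. Of the 5, CDH22, CDH18 and CDH7 passed the filter only through the treated libraries, and 12.0% of all tested genes were up-regulated. CDH22, expressed in brain, had 1.04, 4.19 and 3.15 normalized counts in untreated and 53.7, 61.6 and 59.4 in treated libraries, without overlap. Its log2 fold change was 4.33 ± 0.31 (SE; adjusted p = 9.59e-11), and it lay between 3.94 and 4.72 with 1 library left out. CDH10 had 14.5, 18.8 and 22.0 counts in untreated libraries and 90.1, 95.4 and 104 in treated ones, a log2 fold change of 2.38 ± 0.18 (SE; adjusted p = 2.03e-10). CDH18 had 2.07, 7.33 and 6.30 counts before and 36.4, 47.2 and 41.2 after treatment, a log2 fold change of 2.96 ± 0.31 (adjusted p = 3.70e-08). CDH12 started higher, at 67.3, 76.4 and 68.2, and reached 146, 157 and 189, a log2 fold change of 1.21 ± 0.13 (adjusted p = 3.66e-08). These 3 brain cadherins rose from different starting levels. CDH7 had 61 counts in all and a log2 fold change of 1.74 ± 0.41. CDH24 rose less, from 221, 203 and 202 to 292, 302 and 242, a log2 fold change of 0.42 ± 0.092 (adjusted p = 0.000446).

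The other 7 type II genes were not tested. CDH5, VE-cadherin of endothelial junctions, was at 0 before treatment and had 3, 3 and 1 counts after it. Against a floor of 3 counts over the untreated group this is 2.35-fold by library totals, without the counting error of the treated libraries. CDH11 of mesenchymal cells had 2 counts in each untreated library and 5, 6 and 3 in the treated ones. CDH6, CDH8, CDH9 and CDH20 had 1 to 10 counts over the 6 libraries, and CDH19 had none. A change in these genes was not detectable at this depth with the filter.

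Among the remaining CDH genes CDH23, a long cadherin of hair cell tip links on chromosome 10 from 71396920 to 71815947, had 109, 125 and 128 normalized counts in untreated and 417, 362 and 421 in treated libraries. The log2 fold change was 1.73 ± 0.094 (SE; adjusted p = 7.63e-13). VSIR and C10orf105 lie within it on the opposite strand, with 188 and 4 counts in all, and the strand setting of the counting is not given in the sources used here. CDH26, a cadherin of epithelia in allergic inflammation, whose gene spans 59958423 to 60035934 of chromosome 20, was down-regulated. It had 37.3, 56.5 and 48.3 counts in untreated and 17.2, 21.2 and 23.9 in treated libraries, a log2 fold change of -1.18 ± 0.22 (SE; adjusted p = 6.42e-05) on 201 counts in all. Tested against a change of 1 rather than 0 (glmTreat), it was not called, with an adjusted p of 0.727. CDH13 and CDH17 had 2 counts each over the 6 libraries and CDH16, the kidney cadherin of tubules, had none, which allows up to 3 counts.

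The cadherin-related genes carry cadherin repeats on proteins of photoreceptors and ciliated or brush border cells. CDHR1, which is needed for photoreceptor outer segments, had 125, 127 and 135 normalized counts in untreated and 513, 470 and 474 in treated libraries, a log2 fold change of 1.91 ± 0.082 (SE; adjusted p = 1.79e-14). CDHR3, the rhinovirus C receptor of ciliated airway cells, had 64.2, 67.0 and 60.9 counts before and 94.9, 86.7 and 101 after treatment, a log2 fold change of 0.56 ± 0.13. The brush border pair CDHR2 and CDHR5 stayed near the floor with 23 and 2 counts in all, and CDHR4 had 5, all in treated libraries.

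Non-clustered protocadherins had 9 tested members of 11. Of these 5 were up-regulated, against 12.0% of all tested genes, 3 more were higher and PCDH7 was lower. PCDH8 and PCDH15 passed the filter only through the treated libraries. PCDH1, an airway epithelial protocadherin, on chromosome 5 from 141853090 to 141878410, had 46.6, 53.4 and 45.1 normalized counts in untreated and 346, 352 and 366 in treated libraries, a log2 fold change of 2.87 ± 0.11 (SE; adjusted p = 1.77e-15). It had the smallest p of all members. PCDH8 had 12.4, 5.23 and 3.15 counts in untreated and 63.2, 58.8 and 33.5 in treated libraries, which do not overlap but spread widely, and a log2 fold change of 2.87 ± 0.36. PCDH20 had 201, 205 and 213 counts before and 488, 493 and 487 after treatment, a log2 fold change of 1.25 ± 0.071 (adjusted p = 1.92e-12). PCDH18, with 140, 139 and 126 against 275, 261 and 285 counts, sat on the threshold with a log2 fold change of 1.02 ± 0.090. It fell just under it in DESeq2 (0.996), without the filter (0.998) and with untreated replicate 3 or VPA-treated replicate 3 left out (0.97 and 0.99). PCDH15, the tip link partner of CDH23, had 85 counts in all and a log2 fold change of 3.09 ± 0.40.

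The abundant protocadherins moved less. PCDH9 was higher with 2657, 2658 and 2789 normalized counts in untreated and 3278, 3359 and 3615 in treated libraries, a log2 fold change of 0.34 ± 0.044 (adjusted p = 8.19e-07). PCDH10, a delta protocadherin of forebrain, had 1615, 1546 and 1535 counts before and 1780, 1786 and 1784 after treatment, a log2 fold change of 0.19 ± 0.044 (adjusted p = 0.000764). PCDH17 had a log2 fold change of 0.80 ± 0.084. PCDH7 fell in contrast, from 1450, 1571 and 1422 to 981, 920 and 983 counts, by 0.62 on the log2 scale with a standard error of 0.051 (adjusted p = 8.85e-10). Its treated libraries lay well below the untreated ones. PCDH12, an endothelial protocadherin, had 1 count.

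**Figure D3:**
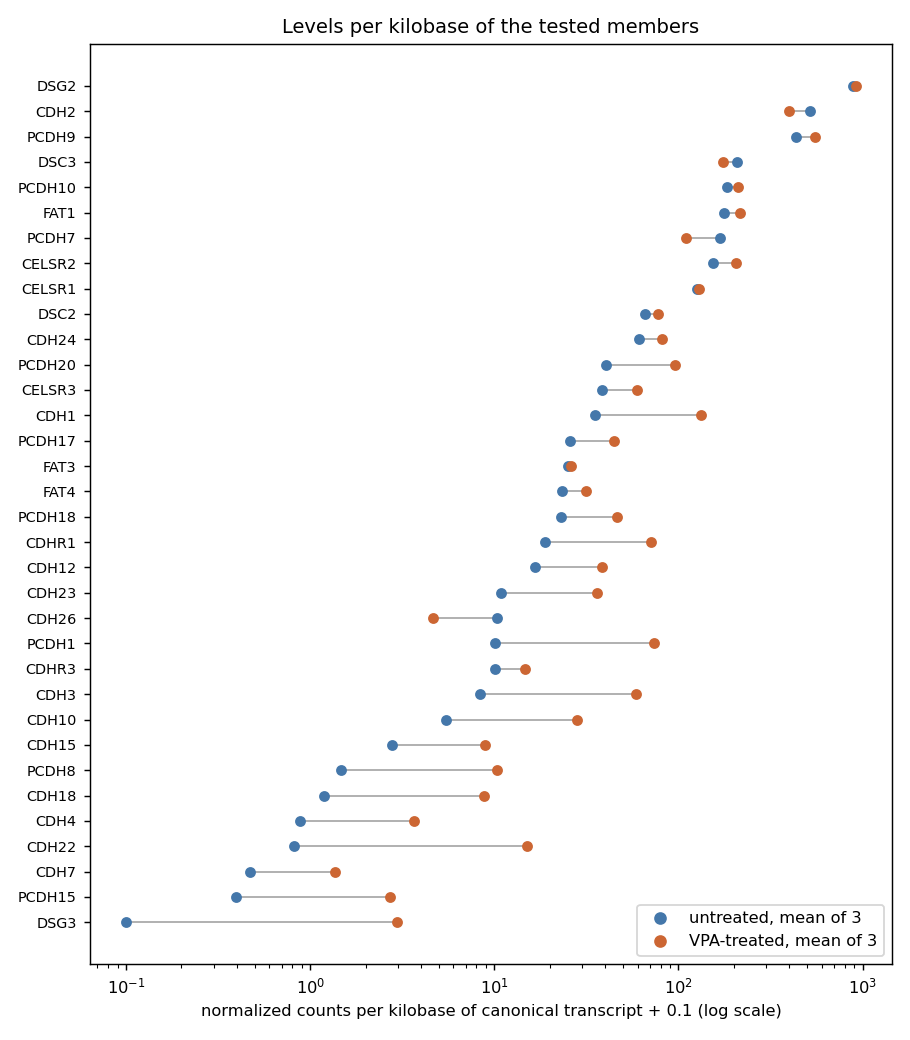
Mean normalized counts per kilobase of the canonical transcript plus 0.1 (x axis, log scale) in untreated and VPA-treated cells for the 34 tested members, ordered by the untreated level. Most long lines lie in the lower part, where the untreated level is low, and DSG2 at the top stands at 891 and 920.

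Per kilobase the order of the members was led by DSG2, CDH2 and PCDH9 in untreated cells, with 891 ± 9.90, 515 ± 20.8 and 434 ± 12.2 normalized counts (SD, n = 3 each), and by DSG2, PCDH9 and CDH2 in treated cells, with 920 ± 17.8, 549 ± 28.3 and 397 ± 3.70. CDH2 and PCDH9 traded places beyond their spread. The place of PCDH9 depends on the transcript taken as its length, since with the union of exons it stood at 87.3 and 110 per kilobase. CDH1 went from rank 14 to rank 8 and PCDH1 from rank 23 to rank 14 among the 53 members. The 17 up-regulated members had a median untreated level of 5.37 per kilobase, the highest being PCDH20 with 40.4, while the 16 tested members that were not called had a median of 140. A low untreated level was built into the 8 members that passed the filter through the treated libraries, and the other 9 had a median of 16.6. The sum over all tested members was 3270 to 3331 per kilobase in untreated and 3851 to 3927 in treated libraries.

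Desmosomal cadherins gave a mixed picture. DSG2, the desmoglein of simple epithelia and the most abundant member per kilobase, had 5031, 5140 and 5060 normalized counts in untreated and 5150, 5221 and 5350 in treated libraries, a log2 fold change of 0.046 ± 0.038 (SE; adjusted p = 0.309), not past the test. Its usual partner DSC2 was higher with 824, 826 and 772 against 890, 984 and 969 counts, a log2 fold change of 0.23 ± 0.055 (adjusted p = 0.0010). DSC3 was lower with 1621, 1589 and 1519 against 1306, 1356 and 1288 counts, a log2 fold change of -0.26 ± 0.046 (adjusted p = 4.82e-05). DSG3, the pemphigus vulgaris antigen of stratified epithelia, was at 0 in every untreated library and had 20, 16 and 14 counts in the treated ones (adjusted p = 6.10e-07). Against a floor of 3 counts over the untreated group this is 16.8-fold by library totals, a bound that takes the treated counts as exact. DSG3 passed the filter only through the treated libraries, so that it had to differ. DSC1, DSG1 and DSG4, which belong to upper epidermis and hair, had 21, 5 and 10 counts in all and were not tested. DSC1 had 1, 1 and 0 counts before and 7, 2 and 10 after treatment, and DSG4 had 0 before and 5, 0 and 5 after. Without the filter DSC1, DSG4 and CDH5 also passed both thresholds in edgeR (adjusted p = 0.00214, 0.00579 and 0.0288), while DESeq2 gave 0.047 for DSC1, 0.367 for DSG4 and no adjusted p for CDH5.

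Markers of other cell types were read beside CDH5 and DSG3. The summed endothelial markers (PECAM1, VWF, KDR, TEK, TIE1, CLDN5 and EMCN) had 11.4 to 22.0 normalized counts in untreated and 135 to 170 in treated libraries. KDR had 459 counts over the 6 libraries and VWF 53, and both were up-regulated (log2 fold changes of 3.26 and 3.79). PECAM1, TEK, TIE1, CLDN5 and EMCN had 1 to 5 counts in all. The fibroblast markers (COL1A1, COL1A2, DCN, LUM, PDGFRB and THY1) summed to 439 to 496 and 1500 to 1668, led by COL1A1 and with COL1A2 and THY1 at 2 counts each. COL1A1, DCN and LUM were up-regulated (log2 fold changes of 1.57, 5.19 and 3.25), and PDGFRB did not pass the test (-0.022). Of the keratinocyte markers KRT5, KRT14, KRT1 and IVL were at 0 in all 6 libraries, TP63 had 15 counts, and KRT10 made up most of a sum of 349 to 483 in untreated and 323 to 368 in treated libraries. The leukocyte markers (PTPRC, CD3E, CD79A, CD14, CD68 and LYZ) summed to 45.6 to 51.4 and 23.0 to 37.4, and the hepatocyte markers (ALB, APOA1, TTR and SERPINA1) to 0 to 3.15 and 0.957 to 1.92. CD68 was down-regulated (-1.21) and KRT10 was lower (-0.25). The part of the endothelial and fibroblast genes in these results was not tested.

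FAT cadherins, giant proteins that signal to the Hippo pathway and planar polarity, moved little. FAT1 was higher with 2657, 2598 and 2604 normalized counts in untreated and 3157, 3193 and 3186 in treated libraries, a log2 fold change of 0.28 ± 0.039 (adjusted p = 2.34e-06). FAT4, the receptor of Dachsous, was higher by 0.43 ± 0.070. FAT3 had 488 ± 21.3 and 508 ± 7.27 counts (SD, n = 3 each) and did not pass (adjusted p = 0.421), and FAT2 had 9 counts. The CELSR cadherins, which align polarity between neighbouring cells, differed in size of response. CELSR3 of axon tracts was higher by 0.63 ± 0.069 and CELSR2 by 0.41 ± 0.047, while CELSR1 of epithelia had 1464 ± 40.9 and 1486 ± 23.6 counts and did not pass (adjusted p = 0.696). The change of CELSR1, 0.022 with a standard error of 0.045, took the other sign in 3 alternatives. With library totals, which raise the median of all genes to 0.14, CELSR1, FAT3 and DSG2 passed the adjusted p with log2 fold changes of 0.15, 0.19 and 0.18.

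**Figure D4:**
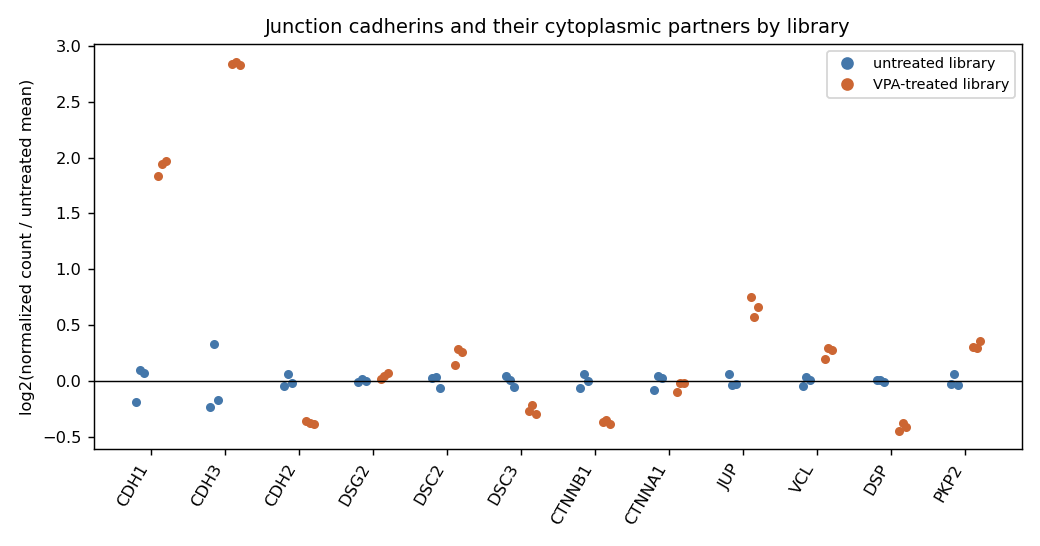
Log2 ratio of each library's normalized count to the untreated mean (y axis) for junction cadherins and their cytoplasmic partners; each point is 1 library. CDH1 and CDH3 stand well above 0 in treated libraries, JUP stands above 0, and CDH2, DSC3, CTNNB1 and DSP stand below it.

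Binding partners, ligands and enzymes of the cadherins were read from lists of 66 genes, 55 of them tested, with 10 up-regulated, 31 higher and 9 lower and a median log2 fold change of 0.18. Among all tested genes 12.0% were up-regulated, 32.9% higher and 30.0% lower. Of 10 tested catenins and armadillo proteins 4 were higher and 2 lower, a share of higher genes near that of all genes. Beta-catenin (CTNNB1), the link from classical cadherins to alpha-catenin, had 14050, 15348 and 14714 normalized counts in untreated and 11364, 11534 and 11258 in treated libraries, a log2 fold change of -0.37 ± 0.042 (adjusted p = 1.30e-07). Plakoglobin (JUP), which serves both junctions, was higher with 1428, 1334 and 1344 against 2299, 2033 and 2159 counts, a log2 fold change of 0.66 ± 0.050 (adjusted p = 2.14e-10). Alpha-catenin (CTNNA1) had 5233 ± 239 and 5074 ± 158 counts (SD, n = 3 each) and did not pass (adjusted p = 0.375), its small change taking the other sign with library totals or upper quartile scaling. CTNNA3, alpha-catenin of heart and testis, was the 1 up-regulated gene of this list, with 7.25, 3.14 and 9.45 against 21.1, 16.4 and 20.1 counts and a log2 fold change of 1.52 ± 0.35. It had under 10 counts in every untreated library and passed the filter only through the treated ones. CTNND1 (p120-catenin) had 218 counts in all, but the readthrough gene TMX2-CTNND1 spans it and shared reads could have been set aside, so its level is uncertain. In the desmosome plaque, a list too short to set against those shares, 2 of 4 tested genes were higher and 2 lower, and desmoplakin (DSP) had 7240, 7237 and 7169 counts before and 5304, 5553 and 5418 after treatment, a log2 fold change of -0.41 ± 0.039 (adjusted p = 6.68e-09).

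Partners of the FAT and CELSR cadherins had 16 tested genes, 3 of them up-regulated, 9 higher and 3 lower. The shares over all tested genes were 12.0%, 32.9% and 30.0%. The FAT ligands DCHS1 and DCHS2 were up-regulated, DCHS1 with 197, 166 and 133 against 517, 459 and 488 normalized counts (log2 fold change 1.56 ± 0.098) and DCHS2 with 25.9, 16.7 and 27.3 against 140, 127 and 114 (2.44 ± 0.17). PRICKLE2 was up-regulated by 1.84 ± 0.14. Tip link and brush border partners had 8 tested genes, 4 of them up-regulated and 7 higher. The scaffolds of CDH23, USH1C (harmonin) and USH1G (sans), were among them, USH1C with 91.1, 114 and 107 against 408, 415 and 419 counts (1.99 ± 0.090) and USH1G with 17.6, 17.8 and 19.9 against 107, 94.4 and 98.6 (2.43 ± 0.17). MYO15A and TMIE were called on 95 and 142 counts, with log2 fold changes of 1.06 ± 0.29 and 1.27 ± 0.27. Each had under 10 counts in some untreated library, so the filter bears on these calls as well. Of 6 tested nectins and calsyntenins 4 were higher, and CLSTN2 and CLSTN3, synaptic proteins with cadherin repeats, were up-regulated by 2.48 ± 0.18 and 1.08 ± 0.048. Of 11 tested genes for cadherin cleavage and turnover 5 were higher and 2 lower, against 32.9% higher and 30.0% lower among all tested genes.

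Many members lie next to each other in the genome, and their values are given in gene order. On chromosome 16, 6 members lie between 61647250 and 68835537 in the order CDH8, CDH11, CDH5, CDH16, CDH3 and CDH1. CDH3 and CDH1 at its end were up-regulated, and the other 4 held 0 to 6 counts in every library. On chromosome 5, CDH18, CDH12 and CDH10 between 19471296 and 24644978 were up-regulated and their neighbour CDH9 had 1 count. On chromosome 18, 8 members lie between 27932879 and 31549008 in the order CDH2, DSC3, DSC2, DSC1, DSG1, DSG4, DSG3 and DSG2. The outer genes CDH2, DSC3, DSC2 and DSG2 were abundant and moved by less than 0.4 on the log2 scale in either direction, and of the 4 inner genes DSG3 was called. CDH18 and DSG3 passed the filter only through the treated libraries. PCDH1 on chromosome 5 was up-regulated, and PCDH12, the next member on that chromosome, had 1 count in all.

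**Figure D5:**
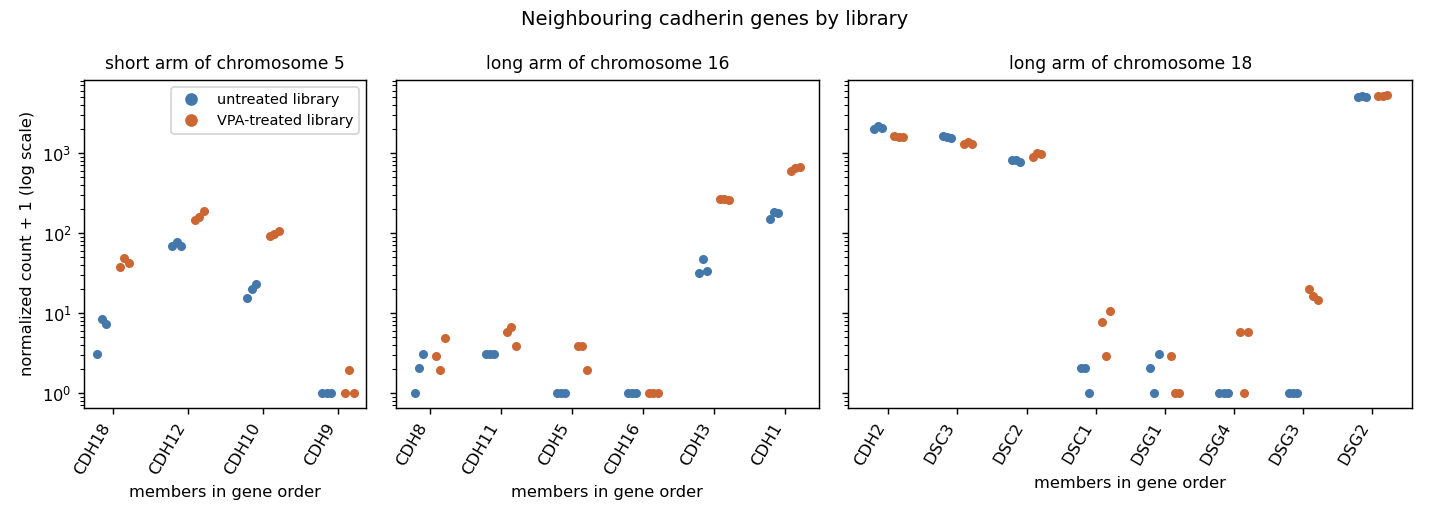
Normalized counts plus 1 (y axis, log scale) of the members of 3 gene neighbourhoods in their order along the chromosome (x axis), 1 point per library. Neighbours stand at very different levels, as DSG3 at 0 and DSG2 at 5031 to 5140 normalized counts in untreated libraries.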

How the data were processed

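RNA from 3 untreated and 3 VPA-treated (1 mM, 1 day) HEK293T samples was sequenced as strand-specific mRNA libraries. SOAPnuke was used by the authors for read cleaning, STAR for alignment to hg38 and HTSeq for the gene counts, with versions 2.7.10b for STAR and 2.0.1 for HTSeq in the submitters' processing notes. The deposited values are raw counts per gene symbol. Which annotation and which strand setting were used for counting is not given in the sources used here. Of the reads listed per library, 11.8% to 12.7% stand in lines without a gene name and were left out.

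edgeR 4.0.16 (R 4.3.3) was run on all genes that passed filterByExpr with a minimum of 10 counts, with TMM normalization, a robust quasi-likelihood fit on treatment alone, 0.125 as prior count and Benjamini-Hochberg adjustment. Standard errors are the fold change (log2) over the square root of F. Lower bounds of fold changes put 3 counts in the untreated group, scale by library totals and leave out the counting error of the treated libraries. Libraries of a group differed by more than sampling noise (chi-square per gene of 1.62 to 4.80). DESeq2 1.42.0, other scalings and filters, glmTreat, the replicate block and leaving out each library were tried as alternatives, and the fits were tested on simulated data. Coordinates and promoters are from RefSeq on GRCh38.p14, the build of hg38, with all 53 members matched by symbol, and lengths are from GENCODE 44. Genes on the opposite strand, most of them small antisense genes or pseudogenes, overlap the tested members CDH2, CDH3, CDH4, CDH12, CDH18, CDH23, DSC2, DSG2, FAT3, PCDH7, PCDH9 and PCDH15. The members and gene lists were chosen with earlier results of these data known. Every member could be named. Values per library are given for called members with at least 100 counts, called decreases and the 5 members with the most counts per kilobase, with others added where a group is described. Of the partner lists the called genes and 5 core junction genes were named. The fold change of 1 gene of the partner lists under the alternatives is not reported here.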

Additional observations from a re-analysis of the deposited data

How the results depend on the processing

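The counts of members held in most alternatives, with 16 to 17 up-regulated and 1 down-regulated when any 1 library was left out. Requiring 10 counts in every library left 9 up-regulated members and 7 up-regulated partner genes, since fewer genes were tested. Testing against a change of 1 (glmTreat) left 13 up-regulated members, 0 down-regulated members and 6 up-regulated partner genes. Of 434 comparisons of a tested member's fold change with an alternative, 427 kept the direction and the call at both thresholds. At the adjusted p alone, library totals made 30 members higher in place of 27, adding CELSR1, FAT3 and DSG2 (adjusted p = 0.00651, 0.0122 and 0.000343), and upper quartile scaling made 28, adding DSG2 (0.0181). The exceptions to the 427 were PCDH18, which fell under the threshold in 4 alternatives, and CELSR1, whose log2 fold change was -0.0030 in DESeq2, -0.00011 without a filter and -0.0063 to 0.035 with 1 library left out, the lowest without untreated replicate 2. Scaling by library totals moved the median log2 fold change of all genes from 0.0058 to 0.14, left 4 partner genes lower in place of 9, and gave log2 fold changes with the opposite sign of 0.087 for CTNNA1, 0.059 for PKP4, 0.028 for CTNNBIP1, 0.039 for FJX1, 0.045 for DVL2, 0.016 for ADAM17 and 0.096 for NUMB, each of which lies under that shift. Upper quartile scaling gave 0.021 for CTNNA1 and 0.030 for NUMB. CLSTN1 was -0.013 in DESeq2, -0.0023 with DESeq2 size factors, -0.010 without a filter, and -0.011 to 0.026 with 1 library left out, below 0 without untreated replicate 2 (-0.00094) or 3. With 1 library left out CALML4 ranged from -0.0027 to 0.12 and NUMB from -0.080 to 0.0086, both crossing 0 without VPA-treated replicate 1. None of these genes passed the test where its sign changed. PPL, a plaque gene that was higher without a call, passed both thresholds with library totals (1.06), without untreated replicate 1 (1.20) and without VPA-treated replicate 2 (1.01). MYO15A lost its call in DESeq2 (adjusted p = 0.0604) and without VPA-treated replicate 2 (log2 fold change 0.92). The fit with the replicate number as a block gave 17 up-regulated and 1 down-regulated members. Deviations of same-numbered libraries correlated at 0.14, 0.021 and 0.080, and those of differently numbered ones at -0.11 to 0.031. Values this small do not settle whether the numbers pair the samples. With 1 exposure, 1 line and 16 members at 1 to 23 counts in all, changes of the rarest members could not be measured. The CDH1 level as a share of CDH2 was 56.3% in treated cells with the union of exons as the length, and the summed type I level was 340 with it in place of 601 (alternatives chosen after seeing the data).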
